A study of Mus musculus with 2 samples.

Results

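The Mir15, Mir16, Mir195 and Mir497 family was measured by microRNA-seq in mouse gastrocnemius, the large calf muscle. Its members were taken by gene symbol from the GENCODE M21 annotation. No measured value entered this rule, although earlier results of these data were known when the members were chosen. The 6 members, Mir15a, Mir16-1, Mir15b, Mir16-2, Mir195a and Mir497, are 6 of the 2202 microRNA (miRNA) genes in the count tables. They lie in 3 clusters of 2 genes each. The tissue came from female B6CASTF1/J mice, an F1 hybrid strain, that were adult and aged 18 to 20 months. There was 1 group of 2 libraries, numbered as biological replicates 1 and 2, with no treatment and no second condition. Both libraries name the same donor entry but separate tissue samples. It is therefore not settled whether they came from separate animals, and their differences may be technical.

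A miRNA is cut from a hairpin-shaped precursor into a short mature strand, which guides a silencing complex to messenger RNAs. Pairing starts from the seed, bases 2 to 8 of the mature strand, so miRNAs with the same seed can bind many of the same messages. The miR-15 family is known for repressing genes of cell cycle progression and survival, such as Ccnd1, Cdc25a and Bcl2. In muscle, miR-195 and miR-497 have been linked to the cell cycle exit of satellite cells, the stem cells of the fibre.

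The strands from the 5′ arm of the hairpins (5p) are shown because they define the family and decide which members can be counted apart. They were taken from RefSeq (build GRCm38.p6), in which all 6 members were found. Capitals mark the seed.
Mir15a, miR-15a-5p: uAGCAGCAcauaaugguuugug
Mir15b, miR-15b-5p: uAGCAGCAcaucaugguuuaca
Mir16-1 and Mir16-2, miR-16-5p: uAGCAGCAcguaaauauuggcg
Mir195a, miR-195a-5p: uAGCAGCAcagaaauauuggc
Mir497, miR-497a-5p: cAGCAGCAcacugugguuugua

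All 6 genes had the seed AGCAGCA, and the run common to all of them extended from position 2 to position 9. Of the 6 strands, 5 began with U, and that of Mir497 began with C. Outside the seed the family fell into distinct sequences. Mir195a matched miR-16-5p at 19 of 21 positions, whereas Mir497, its neighbour on the chromosome, matched Mir195a at 12 of 21. Mir15a and Mir15b matched at 18 of 22 positions and were identical over their first 11 bases. Sequence likeness thus ran across the clusters: each Mir15 was closer to the Mir15 of the other cluster than to the Mir16 beside it, which Mir15a matched at 16 of 22 positions and Mir15b at 14 of 22.

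**Figure D1:**
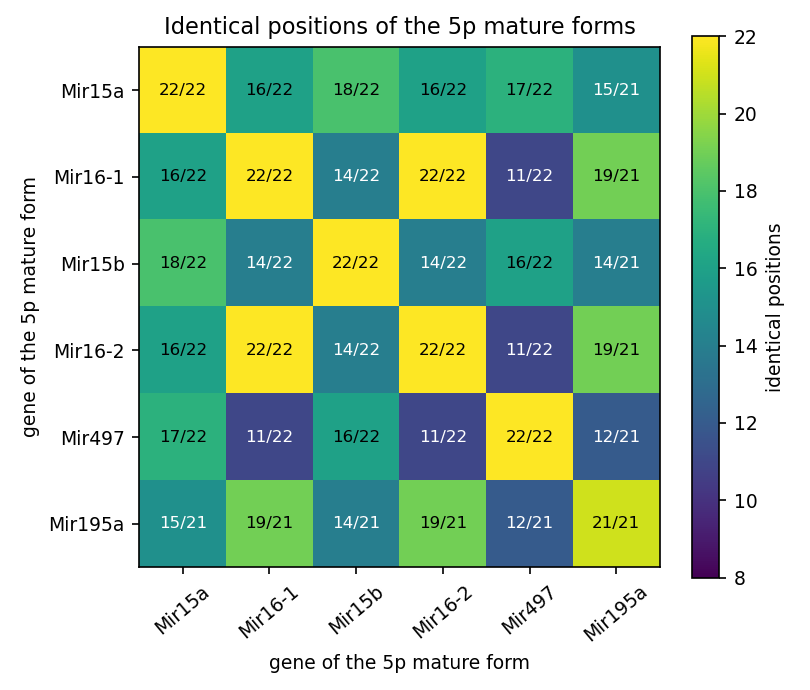
Identical positions between the 5p mature strands of the 6 genes, aligned from the 5′ end without gaps. Each cell gives identical positions over positions compared, and colour gives the number identical. The cells for Mir16-1 and Mir16-2 read 22 of 22, and the lowest values, 11 of 22, are between Mir497 and the Mir16 genes.

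Mir16-1 and Mir16-2 are the one pair of members with the same 5p strand. Their hairpins are shown with miR-16-5p in capitals, since the bases around it are all that separates the copies on this arm.
Mir16-1: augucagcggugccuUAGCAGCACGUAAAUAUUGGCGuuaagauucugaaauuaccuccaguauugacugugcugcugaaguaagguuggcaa
Mir16-2: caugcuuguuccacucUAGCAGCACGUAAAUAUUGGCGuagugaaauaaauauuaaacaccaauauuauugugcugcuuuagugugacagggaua

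The run shared by both hairpins was 23 bases, the 22 bases of miR-16-5p and 1 base after it. A read that lies within this run fits both places. Reads mapping to more than 1 place are tallied apart as multimapping and enter no gene count. The counts of Mir16-1 and Mir16-2 are therefore lower bounds, by an amount the tables do not give. The strands from the 3′ arm (3p) differed, with 12 of 22 positions identical, and the tables do not separate the arms. The 5p strands of the other 4 members were found in no other annotated hairpin at a different locus. Their longest run shared with one was 16 bases for Mir195a, with Mir195b, and 11 bases each for Mir15a, Mir15b and Mir497.

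The libraries held 865419 sense counts on miRNA genes in replicate 1 and 2177048 in replicate 2. Multimapping reads made up 80.7% and 71.0% of all reads. Levels are given as CPM, a gene's counts per 1000000 counts on miRNA genes, where 1 count is worth 1.16 CPM in replicate 1 and 0.459 in replicate 2. CPM of different genes were compared without correction for length, because a read of a mature miRNA spans it whole. Errors are SD over both libraries (n = 2), and intervals are exact 95% intervals of counting error alone.

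The family as a whole was a small part of the counts on miRNA genes. Both its counts and the total leave out multimapping reads, so its share of all miRNA reads in this muscle is not known. It held 3461 counts in replicate 1, or 0.400% of gene counts (Clopper-Pearson interval 0.387 to 0.413). In replicate 2 it held 10842, or 0.498% (0.489 to 0.507), which gives 0.449% ± 0.0694. The family share was 1.25 times as high in replicate 2, a log2 ratio of 0.32, but the difference did not keep its direction under other scalings. The log2 ratio was 0.03 with TMM effective library sizes and -0.10 with DESeq2 size factors.

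In the cluster on chromosome 14, Mir15a had more unique counts than Mir16-1, whose level is known only as a lower bound. Mir15a (ENSMUSG00000093007.1, mm10 chromosome 14, 61632027 to 61632110, minus strand) lies in an intron of the noncoding host RNA gene Dleu2, named for a region deleted in lymphocytic leukaemia. It had 909 counts in replicate 1 and 4131 in replicate 2, or 1050 and 1898 CPM (1474 ± 599). Its level was higher in replicate 2, and the counting intervals did not overlap. Mir16-1 (ENSMUSG00000092995.1, 61631880 to 61631972, minus strand) overlaps an annotated exon of Dleu2 and lies 54 bases from Mir15a. It had 358 and 779 counts, or 414 and 358 CPM (386 ± 39.5), a lower bound. Its CPM was slightly higher in replicate 1.

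The cluster on chromosome 3 had the lowest counts of the 3 and held the member that differed most between the libraries. Mir15b (ENSMUSG00000065580.2, chromosome 3, 69009772 to 69009835, plus strand) lies in an intron of Smc4, which encodes a subunit of condensin, the complex that compacts chromosomes for division. It had 103 counts in replicate 1 and 312 in replicate 2, or 119 and 143 CPM (131 ± 17.2), and its counting intervals overlapped. Mir16-2 (ENSMUSG00000065606.1, 69009902 to 69009996, plus strand) lies 66 bases further on in the same gene. It had 501 counts in replicate 1 but 237 in replicate 2, although replicate 2 was sequenced more deeply. This put Mir16-2 at 579 and 109 CPM (344 ± 332), as a lower bound in each. It had the most counts of its cluster in replicate 1 and the fewest of the family in replicate 2, where its true place is not known because reads shared with Mir16-1 are missing.

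The cluster on chromosome 11 contained a member at nearly equal CPM in both libraries, Mir195a, and one called higher in replicate 2, Mir497. Mir195a (ENSMUSG00000065411.2, chromosome 11, 70235042 to 70235135, plus strand) had 1227 and 2991 counts, or 1418 and 1374 CPM (1396 ± 31.1). The annotation placed no other gene over it. Mir497 (ENSMUSG00000105220.1, 70234717 to 70234800, plus strand), 241 bases away, had 363 and 2392 counts, or 419 and 1099 CPM (759 ± 480). Its level was low in replicate 1 and close to that of Mir195a in replicate 2.

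Mir497 faces another miRNA gene, Mir497b, on the minus strand (70234692 to 70234816). Sense counts at Mir497b were 0 in both libraries, which allows up to 3.47 CPM in replicate 1 and 1.38 CPM in replicate 2. Its antisense counts were 363 and 2392, equal to the sense counts of Mir497. In the unstranded column, where reads over both genes are ambiguous, Mir497 had 0 counts. The antisense count of every member was 0 in both libraries.

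**Figure D2:**
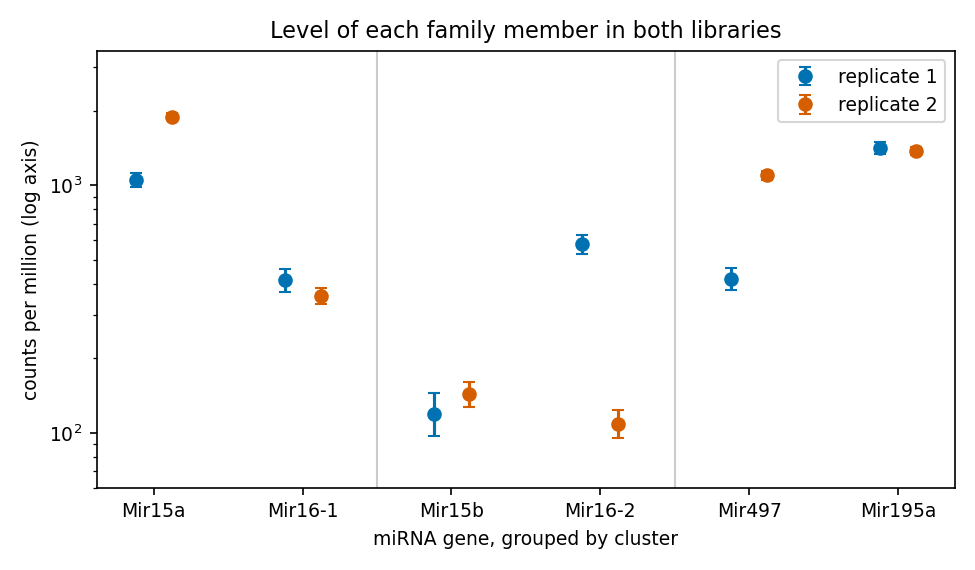
Level of each member in CPM (log axis), grouped by cluster, with 1 point per library and bars for exact 95% Poisson intervals. Mir195a sits at 1418 and 1374 CPM, whereas Mir16-2 sits at 579 CPM in the first library and 109 CPM in the second.

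By mean CPM as counted, with both Mir16 genes as lower bounds, the order was Mir15a, Mir195a, Mir497, Mir16-1, Mir16-2 and Mir15b, at ranks 47, 51, 61, 85, 91 and 135 of all 2202 miRNA genes. Neighbours in this order were seldom separated by more than the spread between libraries. Mir15a and Mir195a exchanged the first place, with Mir195a ahead in replicate 1 and Mir15a ahead in replicate 2. In replicate 1, Mir497 and Mir16-1 could not be told apart, at 419 (interval 377 to 465) and 414 CPM (372 to 459). All other neighbours within a library had intervals that did not overlap. In replicate 2, Mir16-2 had the fewest counts, next to Mir15b at 143 CPM, but a lower bound does not place it below Mir15b.

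Each member was compared between the libraries within the set of 305 genes that averaged 10 or more counts. Its counts were tested against the library totals by an exact binomial test (two-sided, p-values adjusted over the 305 genes by Benjamini-Hochberg). Calls required both an adjusted p below 0.05 and a difference of 2-fold or more. Such a test sets 1 library against the other and has no bearing on conditions. All 6 members passed the filter and 2 of 6 were called, 1 in each direction. Over all tested genes 33.8% were called, 6.89% as higher in replicate 1 and 26.9% as higher in replicate 2, so the family's share is near the background. The median log2 ratio was 0.11 for the members and 0.43 for all tested genes. Of all calls, 79.6% were higher in replicate 2, against 67.3% with TMM and 59.8% with DESeq2 size factors, which lower each log2 ratio by 0.28 and 0.42.

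Mir16-2 and Mir497 were the called members, and the call of Mir16-2 concerns only its uniquely mapped reads. Mir16-2 was 5.32-fold higher in replicate 1 (4.55 to 6.23), a log2 ratio of -2.41 with an adjusted p of 7.41e-108 in the exact test. The call held under TMM and DESeq2 size factors, at -2.69 and -2.83. Mir497 was 2.62-fold higher in replicate 2 (2.34 to 2.93, adjusted p = 1.65e-80 by the exact test), a log2 ratio of 1.39. It was also called with TMM, at 1.11, but DESeq2 size factors put it at 0.97, short of 2-fold.

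The other 4 members were not called. Mir15a was 1.81 times as high in replicate 2 (1.68 to 1.94, adjusted p = 8.86e-65 by the exact test), a difference beyond counting error but below 2-fold. Mir16-1 stood at a ratio of 0.865 (0.762 to 0.983) and Mir15b at 1.20 (0.961 to 1.52). Under TMM and DESeq2 size factors the log2 ratio of Mir15a, 0.85, became 0.57 and 0.44. That of Mir16-1, -0.21, became -0.49 and -0.63. The log2 ratio of Mir15b, 0.27 with library totals, became -0.01 with TMM and -0.15 with DESeq2 size factors. Mir195a had a ratio of 0.969 (0.906 to 1.04, adjusted p = 0.425 by the exact test). The log2 ratio of Mir195a, -0.05, moved to -0.33 with TMM and -0.46 with DESeq2 size factors, so its near equality holds for library totals only.

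**Figure D3:**
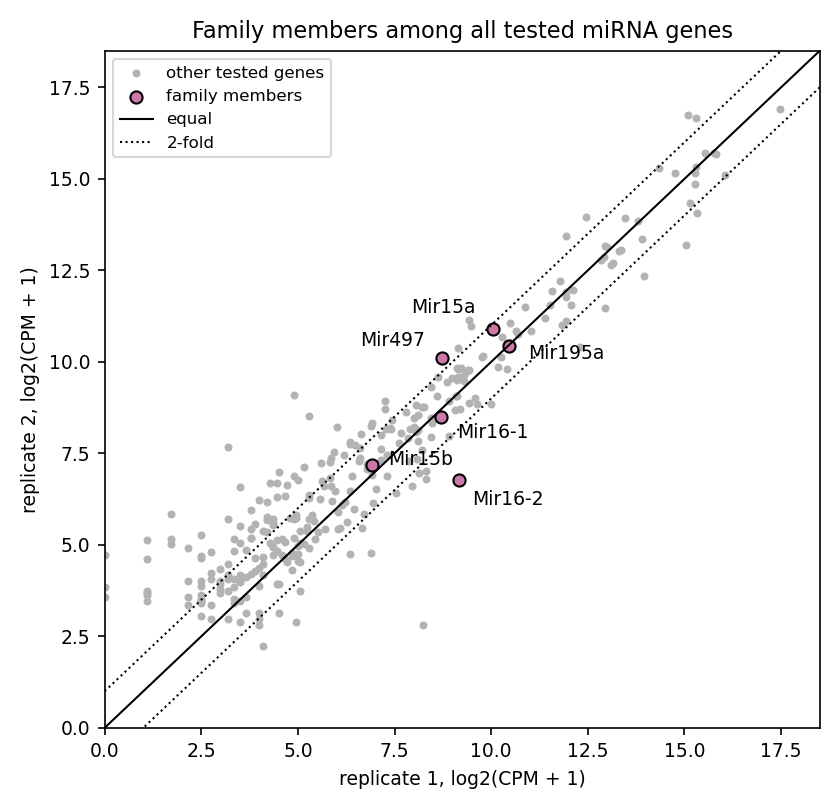
The 305 tested miRNA genes as log2(CPM + 1) in replicate 1 and replicate 2. The solid line marks equal values, the dotted lines 2-fold differences, and filled points the 6 family members, of which Mir16-2 (below) and Mir497 (above) lie outside the dotted lines.

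Comparing the clusters by unique counts, the chromosome 11 genes held the most in both libraries, followed by the Dleu2 genes and the Smc4 genes. The chromosome 11 cluster held 45.9% (44.3 to 47.6) in replicate 1 and 49.6% (48.7 to 50.6) in replicate 2, or 47.8% ± 2.62. The Dleu2 cluster held 36.6% (35.0 to 38.2) and 45.3% (44.3 to 46.2), or 40.9% ± 6.14. The Smc4 cluster held 17.5% (16.2 to 18.8) and 5.06% (4.66 to 5.49), or 11.3% ± 8.76. The Smc4 cluster thus had the fewest counts in each library, and its share differed most between them. In the unstranded column, where Mir497 had no counts, the first 2 places were exchanged, with a mean of 49.5% for the Dleu2 cluster and 37.5% for chromosome 11.

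Summed CPM are the same counts over the library totals, so their order within each library must be the same. The chromosome 11 cluster stood at 1837 and 2473 CPM and the Dleu2 cluster at 1464 and 2255 CPM, ranges that overlap between libraries. The Smc4 cluster stood at 698 and 252 CPM, below both others in each library as counted. With only 2 libraries no permutation test of these levels could reach significance. The Smc4 cluster was 2.77-fold higher in replicate 1 (2.46 to 3.11), a log2 ratio of -1.47 that was -1.75 and -1.89 under the other scalings. The ratios of the Dleu2 and chromosome 11 clusters pointed to replicate 2, at 1.54 (1.45 to 1.64) and 1.35 (1.27 to 1.42). On the log2 scale that of the Dleu2 cluster, 0.62, was 0.21 with DESeq2 size factors, and that of the chromosome 11 cluster, 0.43, was 0.01.

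**Figure D4:**
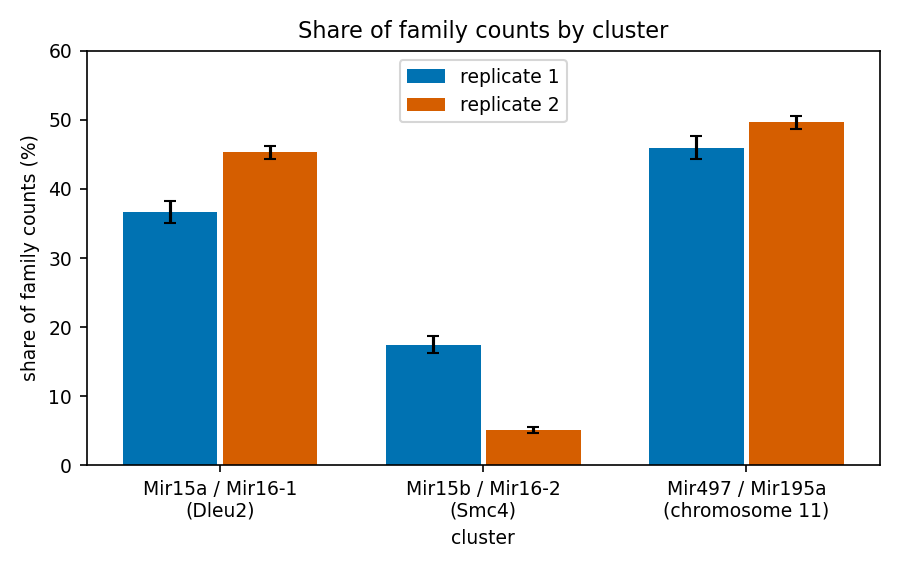
Share of the family's counts held by each cluster in each library, with exact 95% Clopper-Pearson intervals. The chromosome 11 bars stand at 45.9% and 49.6%, and the Smc4 bars at 17.5% and 5.06%.

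The shared strand of Mir16 limits this comparison, since it makes the Dleu2 and Smc4 sums lower bounds. Both Mir16 genes together held 859 counts in replicate 1 and 1016 in replicate 2, or 993 and 467 CPM. They made up 24.8% and 9.37% of the family. Without them, Mir195a and Mir497 held 61.1% and 54.8% of the remaining counts, Mir15a held 34.9% and 42.0%, and Mir15b held 3.96% and 3.18%. These shares compare the members whose 5p strand lies in no annotated hairpin at another locus. They do not show where the clusters would stand with all Mir16 reads. The share of Mir15b then differed little between libraries, with intervals of 3.24 to 4.78 and 2.84 to 3.54.

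Unique counts of genes in the same cluster did not keep a fixed ratio to each other. Because reads of miR-16-5p that fit both loci are missing, ratios over a Mir16 gene are upper limits for the miRNAs themselves, and their intervals cover counting error only. Mir15a had 2.54 counts for each unique count of Mir16-1 in replicate 1 (2.24 to 2.88) and 5.30 in replicate 2 (4.91 to 5.73). The pair whose 5p strands lie in no annotated hairpin at another locus also changed, although other places in the genome were not searched. Mir195a exceeded Mir497 by 3.38 to 1 (3.004 to 3.81) and 1.25 to 1 (1.18 to 1.32). In neither cluster did the intervals of both libraries overlap, but the order of the counts was kept. In the Smc4 cluster Mir16-2, as a lower bound, had 4.86 unique counts for each count of Mir15b in replicate 1 (3.93 to 6.07). In replicate 2 Mir15b had 1.32 counts for each unique count of Mir16-2 (1.11 to 1.57), which does not show that the order of the miRNAs differed. Between the Mir16 genes the order of unique counts turned, with 1.40 counts of Mir16-2 for each count of Mir16-1 in replicate 1 and 0.304 in replicate 2. These ratios do not depend on the scaling of the libraries.

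The same change of ratio was computed for all 51 pairs of consecutive tested genes on 1 strand within 1000 bases, a comparison chosen after the family's values were seen. The median change was 0.80 on the log2 scale. Mir15b with Mir16-2 changed by 2.68 in unique counts, more than any other of the 51 pairs. Mir497 with Mir195a changed by 1.43 and Mir16-1 with Mir15a by 1.06, both above the median, at places 43 and 35 from the smallest.

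**Figure D5:**
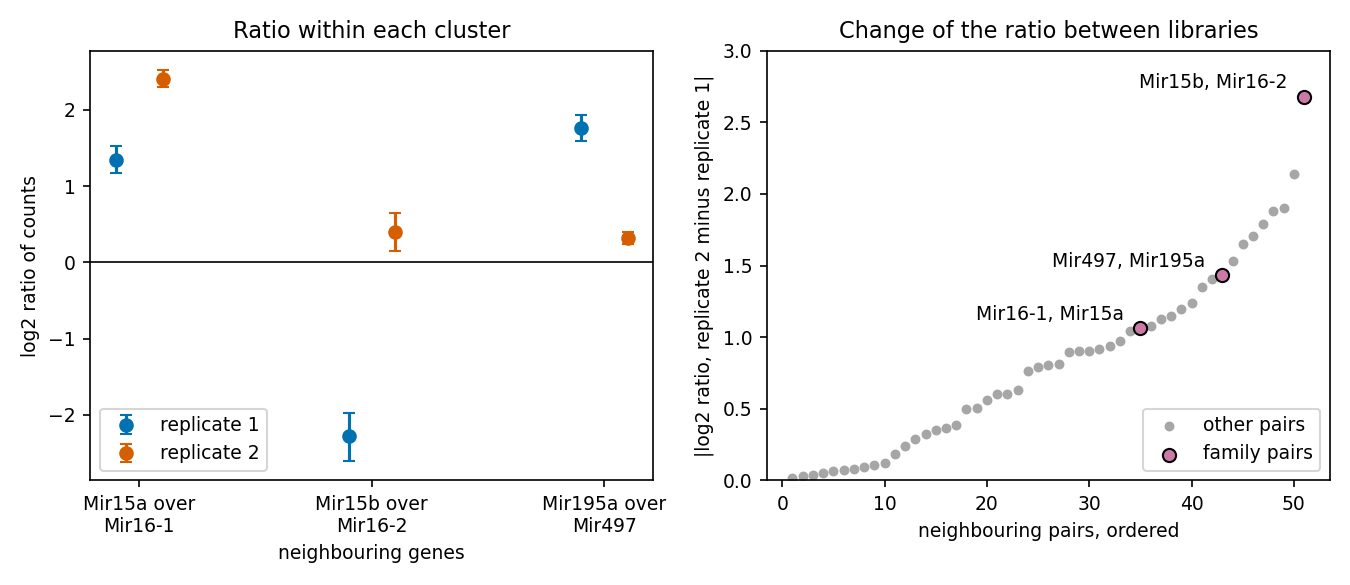
Left, log2 ratio of counts between the genes of each cluster in each library, with exact 95% intervals; only the Smc4 pair crosses 0. Right, absolute change of that log2 ratio between libraries for 51 neighbouring pairs of tested genes, in order of size, with the family pairs at 1.06, 1.43 and 2.68.

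Wider relatives of the family were led by Mir322, the mouse counterpart of human MIR424, in an X-linked cluster with Mir503 and Mir351. In all, 11 genes in the tables had a mature strand with the seed AGCAGCA in RefSeq, the 6 members and 5 others, and 7 of them had counts. The seed of Mir322 is shown beside that of Mir503, which is usually placed with the family.
Mir322, miR-322-5p: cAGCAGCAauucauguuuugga
Mir503, miR-503-5p: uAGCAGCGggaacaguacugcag

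The seed of Mir503 was AGCAGCG, a different last base, so Mir503 is not among the 11. Mir322 had 2563 and 6586 counts, or 2962 and 3025 CPM (2993 ± 44.99). As counted this was above every member in both libraries, but lower bounds do not place the Mir16 genes below it. Mir322 and the members were all the genes with this seed that had counts. Together they held 0.748% ± 0.0739 of gene counts, and the members made up 57.5% and 62.2% of that in replicates 1 and 2.

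The list of relatives named 10 genes, of which 9 were matched in the tables and 3 were tested. None of the 3 was called by the exact test with library totals, with TMM or with DESeq2 size factors, where 33.8%, 32.1% and 31.8% of all tested genes were. Before adjustment 1 of 3 was below 0.05 with library totals, against 68.5% of all tested genes, and 2 of 3 with TMM and with DESeq2 size factors, against 65.9% and 64.9%. So few genes cannot be set apart from that background. The one with library totals was Mir351, at 154 and 283 CPM and a ratio of 1.84 (1.53 to 2.24). Mir351 does not have the seed. Mir503 was low, at 32.4 and 40.4 CPM. Mir322 had a ratio of 1.02 (0.976 to 1.07), and the median log2 ratio of the 3 was 0.32, against 0.43 for all tested genes. Of the others, Mir1907 had 1 count in replicate 2, and Mir195b, Mir6342, Mir6353 and Mir6419 had 0 in both libraries.

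The genes with levels most like each member's were found by distance in log2(CPM + 1) over the 2 libraries, which is a likeness of 2 values only. Mir195a was nearest to Mir92-1 (1347 and 1451 CPM, distance 0.11) and then Mir320. Mir15a was nearest to Mir320 (1241 and 1648 CPM, distance 0.31) and Mir155. Mir15b was nearest to Mir129-1 (110 and 146 CPM, distance 0.12) and Mir483. Mir16-1 had Mir342 and Mir1843a beside it, and Mir497 had Mir128-1 and Mir214, at distances of 0.26 to 0.51. Mir16-2 stood farthest from any other gene, with Mir26a-2 (318 and 111 CPM) at 0.86 and Mir203 (318 and 130 CPM) at 0.90.

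Markers of muscle and of other cells in the tissue also differed between the libraries. Within the skeletal muscle, leukocyte and fibroblast lists they did not all go in 1 direction. All 6 skeletal muscle markers had counts in both, and their sum was 40743 CPM in replicate 1 and 103501 in replicate 2. Nearly all of it was Mir206, the 1 marker called of 5 tested. The other 5 summed to 355 and 269 CPM, with Mir1a-2 at 270 and 162. Mir1a-1 with Mir1a-2, and Mir133a-1 with Mir133a-2, are numbered copies that may have lost multimapping reads as the Mir16 genes did. Their strands were not compared, so these unique counts do not rank Mir206 against them. The slow fibre markers Mir208b and Mir499 summed to 181 and 956 CPM and were both called higher in replicate 2. In the direction of Mir16-2, the smooth muscle markers Mir143 and Mir145a summed to 75404 and 37985 CPM, with Mir145a called.

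The leukocyte markers also included calls in the direction of Mir16-2. All 6 together stood at 4442 and 4930 CPM, but Mir142, at 246 and 96.0 CPM, and Mir223, at 278 and 123 CPM, were called higher in replicate 1, and none was called higher in replicate 2. The rest of the list was not called and did not share that direction. Ratios of replicate 2 over replicate 1 were 1.48 for Mir155, 1.05 for Mir150, 1.02 for Mir146 and 1.03 for Mir342. Fibroblast markers, 3 of 4 with counts in both, summed to 633 and 1383 CPM. That difference was Mir214, called at 564 and 1335 CPM, while Mir199a-2 was called higher in replicate 1 at 15.02 and 5.97 CPM and Mir199b stood at 50.8 and 41.8 CPM. The endothelial marker Mir126a stood at 47279 and 52968 CPM and the erythroid markers Mir144 and Mir451a summed to 230 and 316 CPM, with none called. No list was at 0, and the part of these cells in the values of Mir16-2, Mir497 or any other member was not tested. In bulk tissue, fewer cells of a type and less RNA per cell cannot be told apart.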

How the data were processed

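Raw read counts per miRNA gene were deposited, and no normalization by the authors is recorded. The deposited README names mm10 and GENCODE M21. The sources used here do not name the aligner, counting tool or adapter trimming. The tables have no column names. Their 3 count columns were read from the values as unstranded, sense and antisense, and the sense counts were analysed. The 4 tallies entered neither totals nor tests. Unmapped reads were 5.10% and 8.17% of all reads in replicates 1 and 2. Reads tallied as outside miRNA genes were 1.67% and 2.73%. These leave out the multimapping reads, whose places are not known. All 2202 identifiers matched M21. Its hairpins were searched on both strands for shared runs, and other places in the genome were not searched. By symbol, 1018 genes matched RefSeq mature strands.

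CPM were computed from sense gene counts. The exact test ran over the whole table and was checked on counts simulated with Poisson error alone. That check does not cover variation beyond counting error. A count of 0 entered ratios as 3 counts. The members, lists and tests were chosen with earlier results of these data known. Named genes were all members, every relative averaging 10 or more counts, and the 2 nearest genes to each member. Relatives with lower counts are named to account for the list. Alternatives were TMM (edgeR 4.0.16) or DESeq2 1.42.0 size factors, the unstranded column, a filter of 100 counts or none, no ratio threshold, leaving out copy-numbered genes, the top gene or the Mir16 genes, and leaving out each library. R 4.3.3, Python 3.11.15, NumPy 2.4.6, SciPy 1.17.1 and pandas 2.3.3 were used. Intervals cover counting error only, because the tables record no molecular identifiers and reads may be copies of 1 molecule. The reads, alignments and signal tracks were not analysed here.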

Additional observations from a re-analysis of the deposited data

How the results depend on the processing

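Of 103 genes called with library totals, 50 were called with a mean of at least 100 counts, where fewer genes are tested, and 207 with no ratio threshold. With DESeq2 size factors 1 of 6 tested members was called, as Mir497 dropped out. In the unstranded column, where Mir497 has no counts, it was 1 of 5. With no ratio threshold it was 4 of 6, which added Mir15a and Mir16-1. Over all tested genes these settings called 31.8%, 32.6% and 67.9%, so the members cannot be set apart from the background. Of 35 alternative log2 ratios of single members, 32 stayed on their side of the call, 1 left it and 2 entered it, and no called one changed direction. The family share rose from 0.449% to 0.529% when the top gene, Mir378a, was removed from the totals, as a smaller total must give. In the unstranded column the Dleu2 cluster held 49.5% and the chromosome 11 cluster 37.5% of family counts, which turns their order, because Mir497 is counted as ambiguous there. No ratio of Mir195a to Mir497 could be had from that column. With Mir16-1 and Mir16-2 left out, the chromosome 11 cluster held 57.9%. The depth of replicate 1 limits Mir15b most, at 103 counts. No paired analysis was possible because there is a single group.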
